A study of Mus musculus with 8 samples.

Results

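Expression in EphB2 High cells was compared with expression in EphB2 Medium cells of the mouse intestinal crypt, the first step from the crypt base towards the dividing cells above it. The comparison holds 4 of the 8 arrays of the series, chosen by their labels: 2 arrays of EphB2 High (here High) and 2 of EphB2 Medium (here Medium). All cells were labelled as intestinal crypt cells of C57BL/6 mice with no treatment. They were freed from the intestine with EDTA and enzymes and sorted by the amount of EphB2 on the cell surface, stained with the antibody 2H9. The 2 EphB2 Low arrays (Low) gave the next step of the sort and shared the estimate of spread. The remaining arrays, 1 of Lgr5 High and 1 of Lgr5 Low cells, came from sorting the green fluorescence of an Lgr5-EGFP knock-in allele. Each sample gave 25 ng of total RNA, which was amplified isothermally. The age, sex and number of the mice are not given in the sources used here, and no label ties the replicates to different animals. The p-values therefore cover only the variation among these arrays, which can be purely technical.

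The crypt is renewed from stem cells at its base, which lie between Paneth cells, the antimicrobial secretory cells that also feed Wnt signals to them. Wnt proteins and R-spondins, the ligands of Lgr5, keep beta-catenin active at the base, and EphB2 is a receptor tyrosine kinase under its control. Daughters that leave the base divide as transit-amplifying cells and commit, largely through Notch signalling, to absorptive enterocytes or to secretory goblet, enteroendocrine, tuft or Paneth cells. Because whole sorted fractions were measured, fewer cells of a type and less RNA of a gene per cell cannot be told apart in any value below.

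Values are levels on the log2 scale as RMA gives them for an Affymetrix probe set, 1 probe set for each of 18193 genes, and a difference of 1 is a doubling. Differences are High minus Medium with limma's standard error (SE, n = 2 arrays per group), and a gene was called at a Benjamini-Hochberg adjusted p below 0.05 over all genes. The 9 general epithelial genes stood high, with median levels of 13.56 to 13.66 on the 4 arrays, and 0 were called. Their median difference was -0.07, with a range of -0.33 to 0.05. Both High arrays lay below both Medium arrays in 6 of the 9 and above in 0, against 20.2% and 27.9% of all genes. Cdh1, the epithelial cadherin, lay between 13.0 and 13.2, and Krt8, a keratin of simple epithelia, between 14.1 and 14.2. The median levels of the lymphocyte, myeloid and stromal lists lay between 3.75 and 4.68 on these arrays, against 7.93 to 8.02 for all genes, and 0 of their 50 measured genes were called, with 1 of the 50 at an unadjusted p below 0.05. The log2 of the stromal list's summed level was 11.3 on the first Medium array and between 9.87 and 10.5 on the other three. Ephb2 had no probe set that names it alone and was not analysed here, so the sort was checked on Lgr5. Over all genes, the difference in the first hybridization correlated with that in the second at r = 0.70, a description across genes, which are not replicates.

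In all, 248 genes were called, 1.36% of those tested, and most were lower in High. At an unadjusted p below 0.05 stood 2579 genes, 14.2% of those tested, 7.16% higher and 7.01% lower, and such counts in a list are to be read against these shares. Of the 248 called genes, 39 were higher in High (0.214% of the genes tested) and 209 were lower (1.15%). The lower genes also had the larger differences. Among them 176 differed at least 2-fold and 44 at least 4-fold, against 26 and 0 of the higher genes. Levels were taken here as means over all EphB2 arrays, Low included. By that measure 30 of the 39 higher calls were below the median level of all genes, against 20 of the 209 lower ones. Low stood below Medium in 36 of the 39 and above it in 204 of the 209, so the contrast was partly built in. Levels on the High and Medium arrays alone were not counted this way. On all 248 called genes the High and Medium arrays did not overlap. With 2 arrays a group that was common, since both High arrays lay above both Medium arrays in 27.9% of all genes and below in 20.2%. The count of calls depended on each array. With either 1 of the Low arrays left out, the lone Low array adds nothing to the spread. For High against Medium such a fit is the same as that of the 4 High and Medium arrays alone. Without Medium replicate 1 limma called 0 genes, with 1815 at an unadjusted p below 0.05, and without Medium replicate 2 it called 0 genes, with 1892. It called 76 (7 higher) without High replicate 1, 32 (0 higher) without High replicate 2 and 101 with either 1 of the Low arrays left out.

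**Figure D1:**
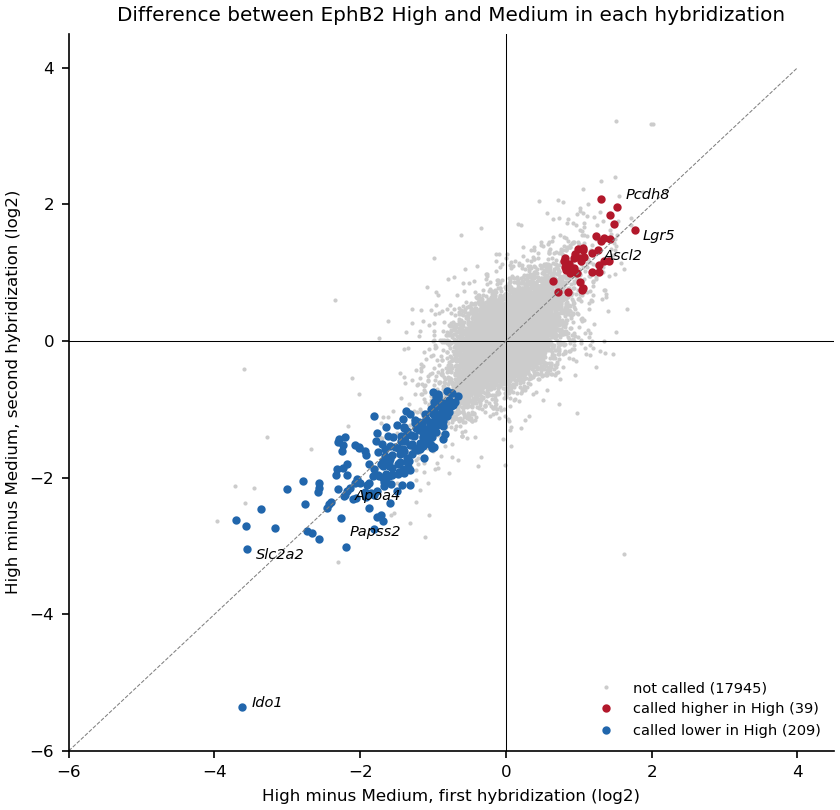
Difference High minus Medium (log2) of each of 18193 genes in the first hybridization (x axis) and in the second (y axis); red and blue points are the 39 genes called higher and 209 called lower in High, grey points were not called and the dashed line marks equal values. Called lower genes reach farther from 0 than called higher genes, with Ido1 farthest in the second hybridization.

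Lgr5, the R-spondin receptor that marks cycling crypt stem cells, stood at 9.48 and 9.64 on the High arrays and at 7.70 and 8.01 on the Medium arrays. The arrays did not overlap, and Medium lay between High and Low, where the level was 5.66 and 4.96. Lgr5 was higher in High by 1.70 ± 0.25 (3.25-fold; adjusted p = 0.0463). With the replicate number as a block, the adjusted p was 0.0784 and the call was lost. In the sort on the Lgr5 allele itself the difference was 4.39, from 1 array each.

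Genes of the crypt base stem cell were higher in High, by modest amounts. Of 25 listed genes 24 were measured, 5 were called higher and 0 lower, and 14 were higher at an unadjusted p below 0.05. Their median difference was 0.69, against 0.03 over all genes. Both High arrays lay above both Medium arrays in 23 of 24, against 27.9% of all genes. The list rests partly on published arrays of sorted crypt cells, perhaps including genes picked by this study from these arrays, and its direction is then no independent evidence. Ascl2, a transcription factor that sets stem cell identity in the crypt, stood at 11.1 and 11.4 on the High arrays and at 9.87 and 9.86 on the Medium arrays, a rise of 1.39 ± 0.16 (adjusted p = 0.0252). Igfbp4, a secreted protein that binds insulin-like growth factors, was higher by 1.23 ± 0.16 (adjusted p = 0.0352). Ephb3, a sister receptor of EphB2, was higher by 1.19 ± 0.15 (adjusted p = 0.0331), and Rgmb, a coreceptor for bone morphogenetic proteins (BMPs), by 1.0 ± 0.13 (adjusted p = 0.0317).

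Other stem cell genes had smaller differences that did not pass. Rnf43, a ubiquitin ligase that removes Wnt receptors, differed by 0.80 ± 0.13 (adjusted p = 0.0551) and Smoc2, a secreted matrix protein, by 0.70 ± 0.24 (adjusted p = 0.27). Olfm4, a secreted glycoprotein abundant in stem cells, stood at 13.3 and 13.4 on the High arrays and at 13.2 on both Medium arrays, a difference of 0.16 ± 0.17 (adjusted p = 0.73). That difference was smaller than its SE. Between Medium and Low, Olfm4 was higher in Medium by 1.10 (adjusted p = 0.0093). With the replicate block 3 of the 5 calls passed, without Lgr5 (0.0784) and Igfbp4 (0.0609). Leaving out High replicate 1 or 2 put the adjusted p of the 5 genes at 0.0662 to 0.149 or at 0.152 to 0.288. Without Medium replicate 1 or 2 it lay at 0.147 to 0.241 or at 0.182 to 0.209, and with either 1 of the Low arrays left out Igfbp4 and Rgmb missed the threshold, at up to 0.0650. The 9 genes used as marks of slowly cycling or reserve stem cells had 0 calls, and 3 at an unadjusted p below 0.05. Among them Mex3a, an RNA-binding protein, differed by 1.17 ± 0.26 (adjusted p = 0.12) and Lrig1, an inhibitor of the EGF receptor, by 0.63 ± 0.15 (adjusted p = 0.14).

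**Figure D2:**
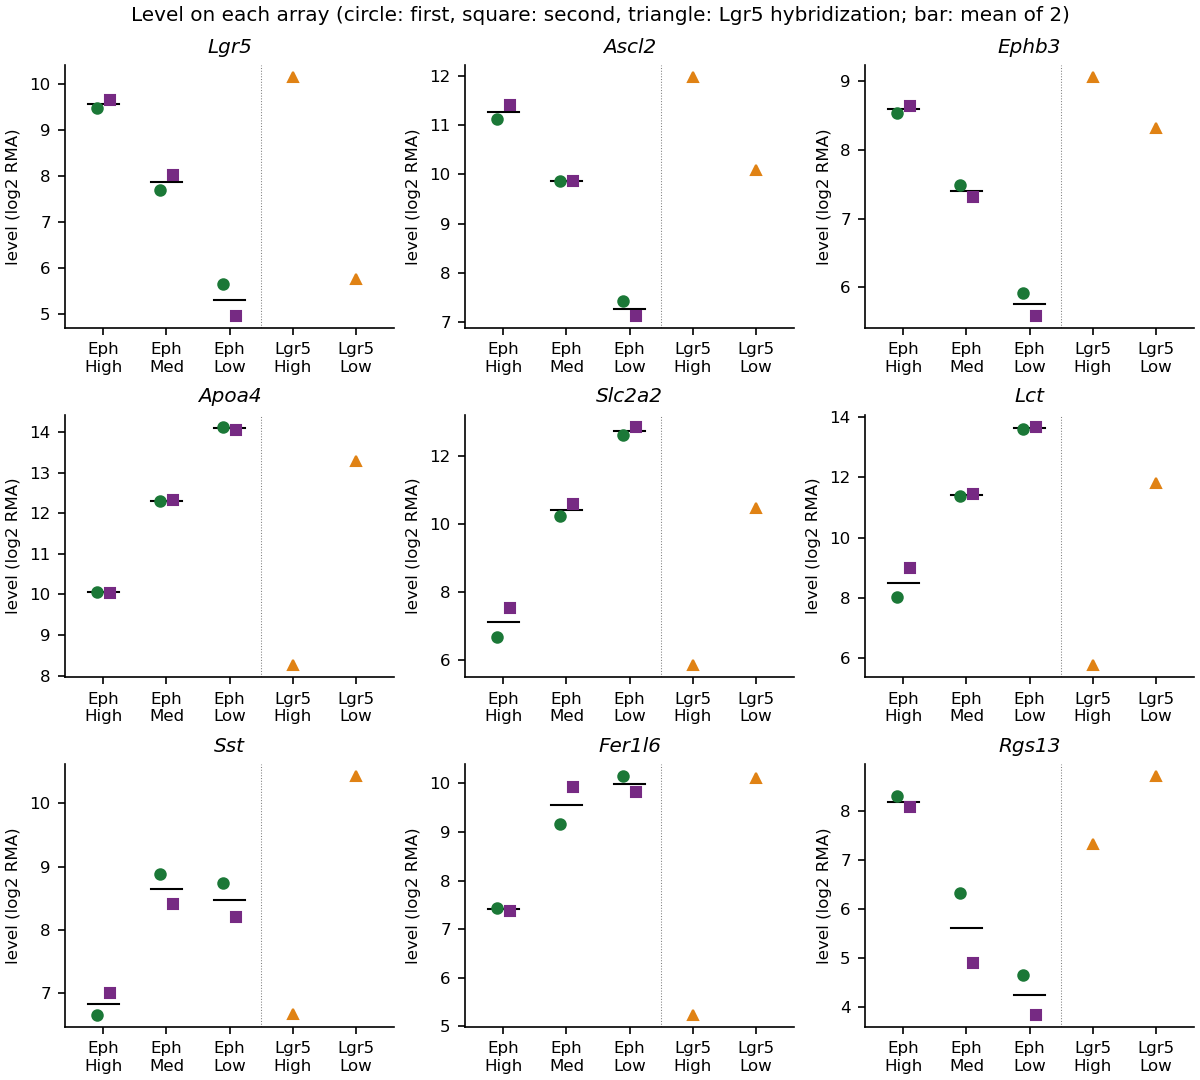
Level (log2 RMA) of 9 genes on each of the 8 arrays: circles are the first and squares the second hybridization of the EphB2 sort, bars are means of 2 arrays, and triangles are the single arrays of the Lgr5 sort. Lgr5, Ascl2 and Ephb3 fall in steps from High to Low, Apoa4, Slc2a2 and Lct climb, Sst and Fer1l6 differ between High and Medium with little difference beyond, and Rgs13 is higher in High than in Medium but lower in Lgr5 High than in Lgr5 Low.

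Along the Wnt pathway, calls were found among receptors and targets. The 17 measured Wnt ligands had 0 calls, with 3 at an unadjusted p below 0.05, near the share of all genes, and a median difference of 0.08 (-0.02 without High replicate 2). Wnt5b differed by 1.24 ± 0.35 (adjusted p = 0.19) and Wnt3, the ligand that Paneth cells make, by 0.76 ± 0.24 (adjusted p = 0.25). Of 19 receptors and coreceptors only Lgr5 was called. Fzd2, a Frizzled receptor, differed by 1.19 ± 0.23 (adjusted p = 0.0885). The 17 measured transducers, which include beta-catenin, its destruction complex and the TCF factors, had 0 calls, 0 genes at an unadjusted p below 0.05 and a median of 0.03. The 17 inhibitors had 0 calls and 6 genes higher at an unadjusted p below 0.05. Apcdd1, a membrane inhibitor of Wnt signalling, stood at 7.43 and 8.09 on the High arrays and at 5.98 and 6.53 on the Medium arrays, a difference of 1.5 ± 0.28 (adjusted p = 0.0829). With the replicate block its adjusted p was 0.0331, a call.

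Genes known to be induced by Wnt in crypts had 4 calls, each higher in High, among 20 measured, with a median difference of 0.47. Of the 4, Lgr5, Ascl2 and Ephb3 are stem cell list genes too. The other, Sp5, a zinc finger factor induced directly by Wnt, stood at 9.70 and 9.59 on the High arrays and at 8.77 and 8.52 on the Medium arrays. Sp5 was higher by 1.0 ± 0.14 (adjusted p = 0.0390, 0.0574 with the replicate block and 0.0549 after centring each array on its median). In Low, where the other three were called lower again, Sp5 stood at 8.98 and 9.13. Its difference Medium minus Low was -0.41 (adjusted p = 0.0854). Axin2, a feedback inhibitor often used as a Wnt readout, differed by 0.69 ± 0.26 (adjusted p = 0.32). Leaving out High replicate 1 or 2 put the adjusted p of the 4 genes at 0.0662 to 0.161 or at 0.152 to 0.288. Without Medium replicate 1 or 2 it lay at 0.133 to 0.241 or at 0.182 to 0.216, and with either 1 of the Low arrays left out Sp5 lay at 0.0708. The Sp5 promoter is shown because Sp5 is a called Wnt target with a match to a TCF motif, CTTTGAT or CTTTGAA on either strand, the letters that TCF factors bind. It is RefSeq's sequence of GRCm38.p6, 250 bases upstream of the start, chr2:70474673-70474922, plus strand, with the match in capitals:

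Sp5: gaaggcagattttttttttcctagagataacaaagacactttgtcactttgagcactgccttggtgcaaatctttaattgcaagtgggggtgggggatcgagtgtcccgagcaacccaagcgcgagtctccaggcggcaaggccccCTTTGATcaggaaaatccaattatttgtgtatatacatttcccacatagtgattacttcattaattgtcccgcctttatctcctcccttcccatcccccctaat

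The match begins 104 bases upstream of the start. A match was found in 7.48% of 32851 promoters of this length and, by gene, in 8.63% of 27025 genes with a promoter in the table. Among stem cell genes it was found in 2 of 16 (12.5%), Esrrg and Tnfrsf19, and among enterocyte genes in 6 of 36 (16.7%). A match is a description of letters, and the arrays measured no binding. Motifs and shown promoters were chosen after the values were seen.

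Other genes led the higher calls. Pcdh8, a protocadherin of cell adhesion, stood at 9.88 and 10.12 on the High arrays and at 8.36 and 8.16 on the Medium arrays, a rise of 1.74 ± 0.21 (adjusted p = 0.0276). It was the largest of the 39. Krt31, a keratin known from hair, was higher by 1.46 ± 0.11 (adjusted p = 0.0121) at levels near 6.5 in High and 5.0 in Medium. Vav3 was higher by 1.43 ± 0.18, Boc, a coreceptor for Hedgehog ligands, by 1.30 ± 0.17, and Cbs, the enzyme that turns homocysteine to cystathionine, by 1.30 ± 0.17 (adjusted p between 0.0307 and 0.0362). Ccdc3 was higher by 1.39 ± 0.12 (adjusted p = 0.0143). Zik1, a zinc finger protein, was higher by 1.69 ± 0.20 (adjusted p = 0.0285) and Kcnh8, a potassium channel, by 1.60 ± 0.22 (adjusted p = 0.0390). Both were dim, with Medium levels of 3.54 to 3.82. Of these 12 leading genes, counting Lgr5, Ascl2, Igfbp4 and Pla2g2a (described with the Paneth genes), 6 passed with the replicate block, and Lgr5, Zik1, Kcnh8, Vav3, Cbs and Igfbp4 had adjusted p of 0.0558 to 0.0784. With the mean of all probe sets of a gene 8 of the 12 passed, without Zik1, Boc, Cbs and Igfbp4 (up to 0.142). With either 1 of the Low arrays left out 7 passed, without Zik1, Vav3, Boc, Pla2g2a and Igfbp4 (up to 0.0771), and with High replicate 1 left out only Zik1 and Ccdc3 did. Without High replicate 2, Medium replicate 1 or Medium replicate 2, 0 of the 12 passed, with adjusted p from 0.0776, 0.0977 and 0.114 up.

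Enterocyte genes formed the largest block of calls and were lower in High. Of 45 listed genes 42 were measured, 24 were called lower and 0 higher, and 36 were lower at an unadjusted p below 0.05. The median difference was -1.72, against 0.03 over all genes. Both High arrays lay below both Medium arrays in 41 of 42 genes, against 20.2% of all genes. The log2 of the list's summed level was 16.4 on both High arrays and 17.3 and 17.4 on the Medium arrays. Under the replicate block 22 were called, without High replicate 1 or 2 it was 17 or 12, with either 1 of the Low arrays left out 12, and with either 1 of the Medium arrays left out 0, while the median stayed between -1.61 and -1.73 in those fits.

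Apoa4, an apolipoprotein of the lipid particles that enterocytes export, stood at 10.07 and 10.05 on the High arrays and at 12.30 and 12.32 on the Medium arrays. The pairs were nearly identical, and its difference was -2.25 ± 0.11 (4.75-fold; adjusted p = 0.00515). Mep1b, a subunit of the brush border protease meprin, stood at 10.31 and 10.29 against 12.46 and 12.44, a difference of -2.15 ± 0.11 (adjusted p = 0.00515). Ace, a dipeptidase of the brush border, had a difference of -1.56 ± 0.11 (adjusted p = 0.0113), Krt20, the keratin of differentiated cells, of -1.69 ± 0.12 (adjusted p = 0.0113), and Treh, which splits trehalose, of -1.72 ± 0.13 (adjusted p = 0.0121). These 5 had the smallest p of the list, between 0.0944 and 0.0977 after adjustment without Medium replicate 1 and between 0.101 and 0.114 without Medium replicate 2. Without High replicate 2, Ace, Krt20 and Treh missed the threshold, at up to 0.0650.

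Several of the list's genes were among the leading lower genes. Slc2a2, the basolateral glucose transporter, stood at 6.67 and 7.53 on the High arrays and at 10.22 and 10.57 on the Medium arrays, a difference of -3.30 ± 0.30 (9.84-fold; adjusted p = 0.0153). G6pc, the phosphatase that releases free glucose, stood at 4.5 and 5.63 against 8.21 and 8.25, a difference of -3.16 ± 0.36 (adjusted p = 0.0252). Lct, the enzyme that splits milk sugar, stood at 8.03 and 8.98 against 11.39 and 11.45, a difference of -2.91 ± 0.30 (adjusted p = 0.0197). All 3 were lower on the first High array than on the second, and both lay well below Medium.

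The leading lower genes held further members of the list. Cyp2b10, a cytochrome P450 of foreign compounds, had a difference of -3.14 ± 0.36 (adjusted p = 0.0255), Slc5a12, a sodium-coupled lactate carrier, of -2.95 ± 0.36 (adjusted p = 0.0294), and Slc13a2, a carrier of citrate and succinate, of -2.59 ± 0.29 (adjusted p = 0.0249). Outside the enterocyte list, Adh4, an alcohol and retinol dehydrogenase, had a difference of -2.60 ± 0.27 (adjusted p = 0.0197). Papss2, which makes the sulfate donor of the cell, had a difference of -2.43 ± 0.20, and Otop3, a proton channel, of -2.73 ± 0.23 (adjusted p = 0.0121 for both). Nat8f5, of an acetyltransferase family, had a difference of -2.75 ± 0.27 (adjusted p = 0.0193). Of the list's textbook markers, Alpi, the brush border alkaline phosphatase, stood at 11.09 and 10.09 on the High arrays and at 12.64 and 12.61 on the Medium arrays and just missed the threshold, with a difference of -2.03 ± 0.31 (adjusted p = 0.0514). Fabp1, a fatty acid binding protein, differed by -0.57 ± 0.12 (adjusted p = 0.0995).

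The promoters of 4 called enterocyte genes are shown because each holds the letters CAAAGTCC or CAAAGTTC, a core that HNF4 nuclear receptors, known regulators of enterocyte genes, bind. This motif shares the run CAAAG with the TCF motif on the opposite strand, so a single stretch can match both. They are RefSeq's 250 bases upstream of the start in GRCm38.p6, all on the plus strand, with matches on either strand in capitals. Apoa4 lies at chr9:46240594-46240843, Treh at chr9:44672983-44673232, Rbp2 at chr9:98490287-98490536 and Ace at chr11:105967698-105967947. Rbp2, the retinol binding protein of enterocytes, was picked after its values were seen; its difference was -1.71 ± 0.13 (adjusted p = 0.0121), and 0.0246 with the replicate block.

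Apoa4: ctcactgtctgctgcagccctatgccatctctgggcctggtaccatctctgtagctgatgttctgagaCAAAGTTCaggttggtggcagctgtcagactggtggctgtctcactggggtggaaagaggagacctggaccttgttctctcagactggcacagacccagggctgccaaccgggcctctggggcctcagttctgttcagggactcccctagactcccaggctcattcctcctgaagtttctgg
Treh: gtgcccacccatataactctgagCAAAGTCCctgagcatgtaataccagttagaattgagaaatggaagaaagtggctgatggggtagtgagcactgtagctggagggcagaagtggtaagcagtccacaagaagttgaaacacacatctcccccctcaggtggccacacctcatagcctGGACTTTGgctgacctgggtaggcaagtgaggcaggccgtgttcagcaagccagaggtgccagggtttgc
Rbp2: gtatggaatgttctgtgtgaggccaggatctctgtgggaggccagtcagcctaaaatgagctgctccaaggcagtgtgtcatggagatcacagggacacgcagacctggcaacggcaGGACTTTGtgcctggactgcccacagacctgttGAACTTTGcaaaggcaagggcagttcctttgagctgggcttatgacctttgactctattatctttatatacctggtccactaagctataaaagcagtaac
Ace: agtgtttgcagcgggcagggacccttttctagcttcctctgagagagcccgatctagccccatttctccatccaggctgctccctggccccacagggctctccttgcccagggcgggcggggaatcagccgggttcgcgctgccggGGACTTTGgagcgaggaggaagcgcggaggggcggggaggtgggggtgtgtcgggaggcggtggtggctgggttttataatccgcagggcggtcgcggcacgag

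The match begins 182 bases upstream of the start in Apoa4, 227 and 70 in Treh, 133 and 100 in Rbp2 and 104 in Ace. Of the 36 measured enterocyte genes with a promoter in the table, 7 held a match (19.4%): these 4 with Alpi, Cyp3a11 and Slc3a1. Over all genes with a promoter the share was 2.41%, 652 of 27025, and in the stem cell list 0 of 16. Whether a factor binds these letters was not measured.

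Transcription factors of the absorptive lineage were partly lower in High. Of 23 measured, 5 were called lower and 0 higher, 4 of them also with the replicate block, and the median difference was -0.24 (-0.09 without High replicate 1). Maf, a bZIP factor of enterocytes, stood at 10.45 and 10.26 on the High arrays and at 11.84 and 11.73 on the Medium arrays, a difference of -1.43 ± 0.12 (adjusted p = 0.0124). Creb3l3, a factor of lipid metabolism, had a difference of -2.03 ± 0.30 (adjusted p = 0.0467), and Nr1i3, the nuclear receptor of foreign compounds, of -1.21 ± 0.15 (adjusted p = 0.0309). Ppargc1a, a coactivator of mitochondrial genes, had a difference of -1.19 ± 0.14 (adjusted p = 0.0278) and Hnf4g, an HNF4 receptor, of -0.95 ± 0.13 (adjusted p = 0.0390, and 0.0502 with the replicate block). With High replicate 1 left out only Creb3l3 passed, at 0.0453, and with either 1 of the Low arrays left out only Maf did, at 0.0411. Without High replicate 2 the lowest adjusted p of the 5 was 0.0897, without Medium replicate 1 it was 0.112 and without Medium replicate 2 it was 0.114. Structural genes of the brush border had 0 calls among 20, 10 lower and 1 higher at an unadjusted p below 0.05 and a median of -0.38. With a trend of the spread on the level, 6 were called lower and 1 higher. With dim genes left out it was 4 lower and 1 higher. Pdzk1, a scaffold under the membrane, differed by -0.96 ± 0.16 (adjusted p = 0.0681) and Anks4b, which links microvilli, by -0.72 ± 0.13 (adjusted p = 0.0796). Pls3, an actin bundler, had a difference of the opposite sign, 0.87 ± 0.13 (adjusted p = 0.0516).

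Ido1, which starts the breakdown of tryptophan, had the largest difference of all called genes. It stood at 5.73 and 4.84 on the High arrays and at 9.35 and 10.20 on the Medium arrays, a difference of -4.49 ± 0.40 (22.4-fold; adjusted p = 0.0153). From Medium to Low the difference was -1.34 (adjusted p = 0.0618). Il33, an alarm cytokine, stood at 5.70 and 6.11 against 8.46 and 8.49, a difference of -2.57 ± 0.16 (adjusted p = 0.00807). Among 18 measured genes of inducible defence, Ido1 and Saa1, a serum amyloid protein, were the 2 calls, and Saa1 had a difference of -2.41 ± 0.22 (adjusted p = 0.0165). The median of the list was -0.09, and it lay between -0.20 without Medium replicate 2 and 0.04 without Medium replicate 1. Within the first and second hybridization it was -0.07 and -0.11. Of 16 measured genes of chloride and ion transport, 7 were lower and 1 higher at an unadjusted p below 0.05. Their differences ranged from -2.77, in a gene that was not called, to 0.52. The 2 called were anion exchangers: Slc26a6 with a difference of -1.84 ± 0.20 (adjusted p = 0.0234) and Slc26a3 with -1.27 ± 0.19 (adjusted p = 0.0457, and 0.0744 with the replicate block). Leaving out High replicate 1, Slc26a3 and Saa1 missed the threshold at up to 0.0817, and without High replicate 2 all 4 of Ido1, Saa1, Slc26a6 and Slc26a3 did, at 0.0650 to 0.236. Without Medium replicate 1 or 2 the 4 lay at 0.0946 to 0.198 or at 0.114 to 0.239, and with either 1 of the Low arrays left out Slc26a6 and Slc26a3 missed it, at up to 0.0716. Among all 12 leading lower genes, which include Il33, 12 passed with the replicate block, 10 without High replicate 1, 6 without High replicate 2, 7 with either 1 of the Low arrays left out and 0 with either 1 of the Medium arrays left out.

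Of 22 measured goblet cell genes 2 were called lower and 0 higher, and 9 were lower and 2 higher at an unadjusted p below 0.05. Both High arrays lay below both Medium arrays in 12 genes and above in 6. Over all genes the shares were 20.2% below and 27.9% above, so the 6 were near the latter. The median difference was -0.19 (-0.30 without Medium replicate 1). Fer1l6, a ferlin membrane protein, stood at 7.44 and 7.37 on the High arrays and at 9.16 and 9.92 on the Medium arrays, a difference of -2.14 ± 0.26 (adjusted p = 0.0307, and 0.0574 with the replicate block). Capn9, a calpain protease of the gut, stood at 7.36 and 7.66 against 8.96 and 9.48, a difference of -1.72 ± 0.21 (adjusted p = 0.0284). Neither differed much from Medium to Low, by -0.44 (adjusted p = 0.30) and 0.10 (adjusted p = 0.79). Mucus genes themselves did not pass. Muc2, the main gel-forming mucin, differed by -0.89 ± 0.19 (adjusted p = 0.11) and Clca1, a protein secreted with mucus, by -0.91 ± 0.16 (adjusted p = 0.0767). Enteroendocrine genes had 1 call among 25 measured. Sst, the hormone somatostatin, stood at 6.66 and 7.0 on the High arrays and at 8.88 and 8.41 on the Medium arrays, a difference of -1.81 ± 0.25 (adjusted p = 0.0408, and 0.0603 with the replicate block). At an unadjusted p below 0.05, 6 were lower and 0 higher. The list median was -0.60, and it was -0.49 within the first hybridization and -0.62 within the second. Leaving out 1 array, which leaves another without its same-numbered partner, moved the median between -0.04 without Medium replicate 1 and -1.08 without High replicate 1. Leaving out High replicate 1 or 2 put the adjusted p of Capn9, Fer1l6 and Sst at 0.117 to 0.158 or at 0.132 to 0.198. Without Medium replicate 1 or 2 it lay at 0.0946 to 0.205 or at 0.114 to 0.154, and with either 1 of the Low arrays left out at 0.0622 to 0.0659.

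Factors that specify secretory cells had 0 calls among 23 measured, with 2 higher and 6 lower at an unadjusted p below 0.05. Their median difference was 0.22 (0.03 without High replicate 1), with a range of -1.56 to 0.96. Both High arrays lay above both Medium arrays in 10 and below in 9, against 27.9% and 20.2% of all genes. Atoh1, which commits cells to all secretory fates, differed by 0.26 ± 0.25 (adjusted p = 0.72). Isl1, an endocrine factor, stood at 8.09 and 7.68 on the High arrays and at 9.79 and 9.09 on the Medium arrays, a difference of -1.56 ± 0.37 (adjusted p = 0.14). With the replicate block its adjusted p was 0.0325, a call. Neurod1, a later endocrine factor, differed by -1.21 ± 0.37 (adjusted p = 0.22).

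Tuft cell genes, from the chemosensory cells of the epithelium, were higher on the High arrays, though none passed. Of 23 listed genes 19 were measured, 0 were called, and 10 were higher and 0 lower at an unadjusted p below 0.05. Their median difference was 0.96, and it lay between 0.67 without Medium replicate 2 and 1.19 without Medium replicate 1. Both High arrays lay above both Medium arrays in 15 of 19, against 27.9% of all genes. The list was mostly dim, with median levels of 7.40 and 7.31 on the High arrays, against 7.985 and 8.022 for all genes. With genes left out whose mean over the 6 EphB2 arrays lay below the median of all genes, 1 of the 19 remained. Its difference was 0.10. Because that mean includes Medium and Low, genes above the median of all genes on both High arrays were left out too, among them Rgs13, Dclk1 and Spib. Rgs13, a regulator of G protein signalling, stood at 8.31 and 8.08 on the High arrays and at 6.32 and 4.90 on the Medium arrays, a difference of 2.58 ± 0.50 (adjusted p = 0.0895). The Medium arrays lay farther apart than the High arrays. Dclk1, the kinase used as tuft marker, stood at 9.07 and 8.70 against 7.77 and 6.35, a difference of 1.82 ± 0.53 (adjusted p = 0.20). Spib, an Ets factor, stood at 9.34 and 8.95 against 7.62 and 7.15, a difference of 1.76 ± 0.28 (adjusted p = 0.0580). With the replicate block, 5 of the 19 were called, among them Spib (adjusted p = 0.0201), Rgs13 (0.0448) and Alox5ap (0.0198), a helper of leukotriene synthesis. The log2 of the list's summed level was 12.4 and 11.8 on the High arrays and 11.2 and 10.5 on the Medium arrays. The part of tuft cells in the other differences was not tested.

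Of 27 listed Paneth cell genes 16 were measured, and 1 was called higher and 1 lower, with a median difference of 0.33 and a range of -2.16 to 1.26. At an unadjusted p below 0.05, 7 were higher and 1 lower. Both High arrays lay above both Medium arrays in 11 of the 16, against 27.9% of all genes. Lyz1, lysozyme, stood at 13.9 and 14.1 on the High arrays and at 13.6 and 13.9 on the Medium arrays, so that the groups did not separate beyond their spread (0.23 ± 0.14, adjusted p = 0.53). Mmp7, the protease that activates defensins, differed by 0.75 ± 0.17 (adjusted p = 0.12). Pla2g2a, a secreted antibacterial phospholipase, stood at 11.46 and 11.56 against 10.11 and 10.38, a rise of 1.26 ± 0.13 (adjusted p = 0.0204). Reg3a, an antibacterial lectin that enterocytes make too, stood at 9.33 and 8.97 against 11.21 and 11.41, a difference of -2.16 ± 0.18 (adjusted p = 0.0121). The log2 of the list's summed level was 16.5 on both High arrays and 16.4 and 16.5 on the Medium arrays. Without Medium replicate 1 the adjusted p of Pla2g2a and Reg3a lay at 0.0977 to 0.125, without Medium replicate 2 at 0.114, and without High replicate 2 at 0.0650 to 0.152. With High replicate 1, or either 1 of the Low arrays, left out only Reg3a passed (Pla2g2a at 0.0902 and 0.0579).

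The Lgr5 sort offered arrays that the EphB2 comparison did not use, 1 for each group and so with no test. Of the 39 genes called higher in High, 34 were also above in Lgr5 High, against 44.2% of all genes. Of the 209 called lower, 208 were also below, against 55.6% of all genes. The median differences Lgr5 High minus Low were 1.31 and -2.33, beside High minus Medium medians of 1.12 and -1.53. By list, the Lgr5 median was 0.92 for stem cell, -3.06 for enterocyte, -1.40 for goblet and -2.07 for enteroendocrine genes. Tuft and Paneth genes stood the other way in the Lgr5 sort, with medians of -0.85 and -0.55, and 16 of 19 and 15 of 16 genes lay below in Lgr5 High. Dclk1 had a difference of -1.74 there and Pla2g2a of -0.91.

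**Figure D3:**
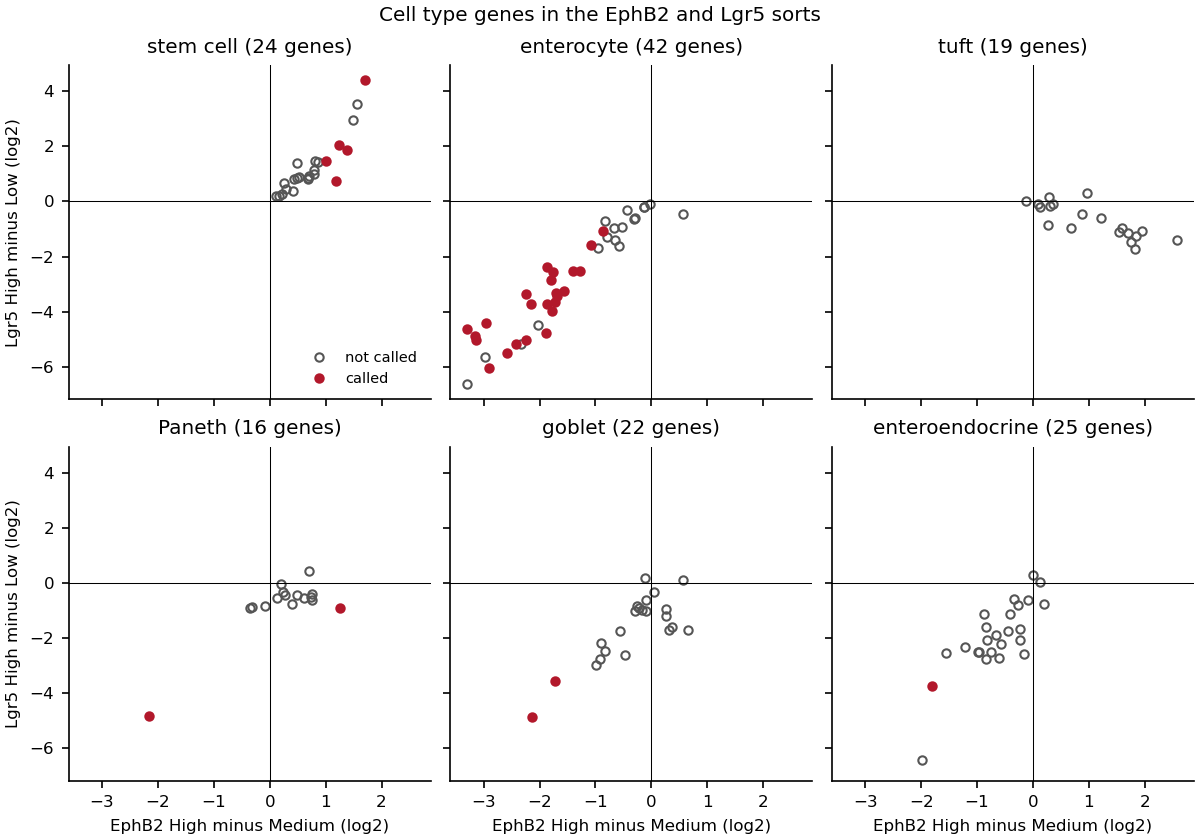
Difference EphB2 High minus Medium (x axis, log2, n = 2 arrays per group) and Lgr5 High minus Low (y axis, log2, 1 array each) for the measured genes of 6 cell type lists; filled points were called in the EphB2 comparison. Stem cell genes lie at the upper right and enterocyte genes at the lower left, while most tuft and Paneth genes lie at the lower right.

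Genes of cell division and growth had small differences in the first step and no call. Of 46 measured mitosis genes 0 were called and 5 were higher at an unadjusted p below 0.05, with a median difference of 0.35. Of 47 DNA replication genes 0 were called and 2 were higher at an unadjusted p below 0.05, with a median of 0.22. For ribosome biogenesis it was 0 of 52, 7 at an unadjusted p below 0.05 and a median of 0.27, and for nucleotide synthesis 0 of 27, 4 and 0.26. Ndc80, a kinetochore protein, stood at 10.08 and 10.17 on the High arrays and at 9.54 and 9.44 on the Medium arrays, a difference of 0.63 ± 0.16 (adjusted p = 0.17). Nat10, a nucleolar acetyltransferase, differed by 0.52 ± 0.13 (adjusted p = 0.15) and Umps, which makes uridine monophosphate, by 0.46 ± 0.12 (adjusted p = 0.17). Both High arrays lay above both Medium arrays in 41 of 46 mitosis genes and 44 of 52 ribosome genes, against 27.9% of all genes. The differences were thus small but mostly in 1 direction. Regulators of the cell cycle had 0 calls among 38, with 1 higher and 6 lower at an unadjusted p below 0.05. Cell cycle inhibitors were among the latter: Cdkn2b differed by -1.79 ± 0.33 (adjusted p = 0.0807), Cdkn1a by -0.79 ± 0.16 (adjusted p = 0.11) and Rb1 by -0.70 ± 0.13 (adjusted p = 0.0860).

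In the second step the values of these lists were larger. From Medium to Low, which shares the Medium arrays with the first step, 4489 genes were called, 24.7% of those tested. The list medians Medium minus Low were 1.69 for mitosis, 1.59 for DNA replication, 1.06 for ribosome biogenesis and 1.16 for nucleotide synthesis, and 44 of 46, 46 of 47, 47 of 52 and 22 of 27 genes were called higher in Medium. Stem cell genes had a median of 1.67 in this step, 23 of 24 called. Enterocyte genes had a median of -1.43 with 37 of 42 called lower in Medium, beside -1.72 in the first step. A direct test of whether both steps differ called 1 gene (0.0055% of those tested), with 2160 at an unadjusted p below 0.05, so for single genes of these lists a difference between the steps was not called. At an unadjusted p below 0.05 the first step was the smaller in 29 of 46 mitosis and 38 of 47 replication genes and the larger in 0. For enterocyte genes it was the smaller in 6 and the larger in 6 of 42. Over all 18193 genes the first step was the smaller in 1946 and the larger in 214 at that threshold. The called gene was Gsdma, of the gasdermin family, which stood at 4.05 and 3.99 in High, 3.54 and 3.37 in Medium and 6.91 and 6.82 in Low. Its second step was -3.41, against 0.57 for the first (adjusted p of the difference 0.0332), and without any 1 of the 6 arrays, or with the replicate block, that test called 0 genes.

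**Figure D4:**
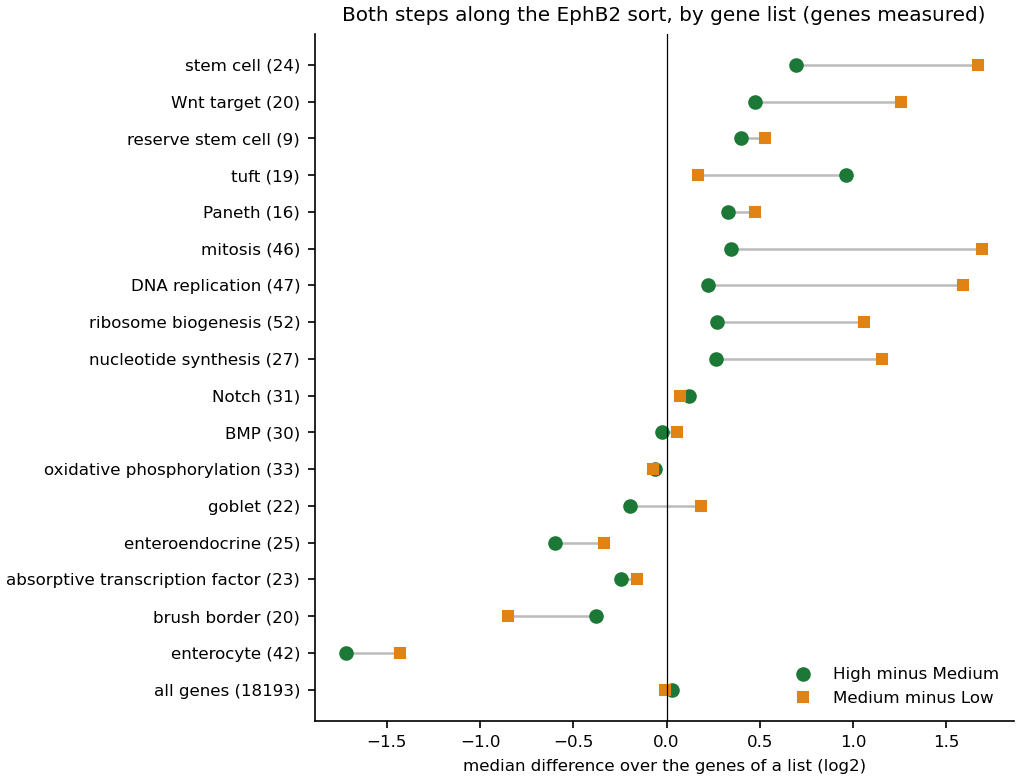
Median difference over the measured genes of each list (log2; number of genes in brackets) for High minus Medium (circles) and Medium minus Low (squares), which share the Medium arrays. Lists of dividing cells lie near 0.2 to 0.4 in the first step and above 1 in the second, while enterocyte genes lie below -1.4 in both and tuft genes lie higher in the first.

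Over the called genes, both steps mostly ran the same way. Of the 39 higher genes 28 were also called higher in Medium than in Low, and of the 209 lower genes 192 were also called lower, with 1 called the other way. The first step was the larger of both in 20 of the 39 and in 94 of the 209. These counts describe steps that share the Medium arrays.

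Eph receptors and ephrins, which position cells along the crypt by repulsion, changed in both directions. Of 21 measured, 2 were called higher and 2 lower in High. Efnb2, a ligand of EphB receptors, stood at 9.35 and 9.07 on the High arrays and at 10.91 and 11.03 on the Medium arrays, a difference of -1.76 ± 0.15 (adjusted p = 0.0121). Epha2, a receptor, had a difference of -1.01 ± 0.13 (adjusted p = 0.0352). Ephb3, given above, and Efna4, a ligand of EphA receptors, were higher, Efna4 by 0.99 ± 0.15 (adjusted p = 0.0492, 0.0567 with the replicate block, 0.0563 after centring and 0.0585 after quantile normalization once more). In the Myc network Mxd1, an antagonist of Myc that is made as cells stop dividing, was the 1 call of 15, with a difference of -1.22 ± 0.17 (adjusted p = 0.0372). Pvt1, the RNA gene next to Myc, differed by 1.37 ± 0.22 (adjusted p = 0.0615). With High replicate 1 left out only Efnb2 of these 5 called genes passed, at 0.0440, and with either 1 of the Low arrays left out Efnb2 and Ephb3 did. Without High replicate 2 their lowest adjusted p was 0.0677, and without Medium replicate 1 or 2 it was 0.0977 or 0.115.

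Other signalling pathways had few calls. Of 31 measured Notch genes 0 were called, with 6 higher and 1 lower at an unadjusted p below 0.05 and a median of 0.12. Notch1, the receptor that keeps stem cells from secretory fate, differed by 0.95 ± 0.19 (adjusted p = 0.0939) and Lfng, which modifies Notch receptors, by 1.07 ± 0.25 (adjusted p = 0.14). Of 30 BMP genes Rgmb was the 1 call. Bmp7, a ligand, differed by 0.81 ± 0.13 (adjusted p = 0.0621) and Bmp2, a ligand of the upper epithelium, by -0.91 ± 0.26 (adjusted p = 0.20). Of 25 measured EGF receptor pathway genes 0 were called and 5 were at an unadjusted p below 0.05. Ereg, a ligand, differed by -1.49 ± 0.46 (adjusted p = 0.23, and 0.0223 with the replicate block).

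Genes of energy metabolism had no call. The 33 measured genes of oxidative phosphorylation had 0 calls, 0 at an unadjusted p below 0.05 and a range of -0.20 to 0.02. Glycolysis had 0 calls among 18 with 4 at an unadjusted p below 0.05, fatty acid oxidation 0 among 19 with 5, and cholesterol synthesis 0 among 19 with 1. Both High arrays lay below both Medium arrays in 20 of 33 oxidative phosphorylation and 11 of 18 glycolysis genes. For fatty acid oxidation it was 13 of 19 and for cholesterol synthesis 8 of 19, against 20.2% of all genes. Both High arrays lay above in 2 glycolysis genes and in 0 of the other lists. The medians were small, from -0.15 to -0.06. Acaa1b, a peroxisomal thiolase, differed by -1.57 ± 0.28 (adjusted p = 0.0767, and 0.0331 with the replicate block). Of 9 keratins Krt20 was the 1 call, and Krt12, a keratin known from the cornea, differed by -1.08 ± 0.21 (adjusted p = 0.0939, and 0.0354 with the replicate block). Of 20 genes raised by tissue dissociation 0 were called and 2 were lower at an unadjusted p below 0.05, with a median of -0.19. In 14 of the 20 both High arrays lay below both Medium arrays, and in 1 above.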

How the data were processed

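Mouse Affymetrix arrays of sorted crypt cells were used. Per the submitters' processing notes the deposited log2 values were made by RMA (background correction, quantile normalization, summary per probe set), with no version or joint normalization stated in the sources used here. Because RMA evens out the arrays' distributions (medians 6.12 to 6.20), total RNA per cell is not measured. The number of arrays limits the precision.

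Of 45101 probe sets, 64 were controls, 34945 named 1 gene in GEO's platform annotation, 932 several and 9160 none. RefSeq held 34741 of the single-gene ones. Each of 18193 genes was taken by its brightest single-gene probe set. Of 248 called genes 102 had further probe sets, 19 with an opposite sign, 1 of them (Hsd17b6) at an unadjusted p below 0.05.

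limma 3.58.1 in R 4.3.3 (lmFit, contrasts.fit, eBayes, 2-sided) was fitted to the 6 EphB2 arrays with group only, 3 residual degrees of freedom and no filter. A run on simulated data drew the noise of each array independently, so it did not cover a shared hybridization. Python 3.11.15 made the counts. Replicate numbers mark a shared hybridization in the labels and so pair samples. Deviations of same-numbered arrays correlated at 0.45 (High and Medium), 0.13 (High and Low) and 0.21 (Medium and Low). The block was an alternative. The 39 gene lists, the rule and the comparison were chosen with earlier results of these data known. The text names Lgr5, the 12 genes of largest difference each way among called, non-overlapping genes (3 names without assigned function skipped), up to 5 genes per list by smallest p, up to 8 genes each way called between steps, and defining markers.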

Additional observations from a re-analysis of the deposited data

Results flagged for a closer look

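Among the called genes named and the list medians, 4 values stood at least 0.25 on one side of 0 in both EphB2 hybridizations and at least 0.25 on the other side in the Lgr5 sort. Genes that were not called, such as Dclk1 and Rgs13, and lists with smaller medians stood in opposite directions too. The opposition was not tested, since the Lgr5 sort has 1 array per group. Kcnh8 was higher in EphB2 High than in Medium by 1.60, and its difference Lgr5 High minus Low was -0.34. Pla2g2a was higher by 1.26 in EphB2 High, and its Lgr5 difference was -0.91. The Paneth list had a median of 0.38 and 0.28 in the first and second EphB2 hybridization and of -0.55 in the Lgr5 sort. The tuft list had medians of 0.81 and 1.12 and of -0.85.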

How the results depend on the processing

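Calls depended on which array was left out. Leaving out 1 of the 6 EphB2 arrays at a time gave 0 to 101 called genes, 0 to 12 higher and 0 to 89 lower, and 0 in the test between steps; the 4 High and Medium arrays alone gave 101 (12 higher, 89 lower). The 49 called genes named in the text kept their direction in each such fit. That was fixed in advance, because their High and Medium arrays did not overlap, and is no check. For High against Medium, the fits without either 1 of the Low arrays and the fit of the 4 arrays alone are 1 result, not separate checks. With a trend of the spread on the level 506 genes were called (85 higher, 421 lower, 6 between steps), and with dim genes left out 456 (71 higher, 385 lower, 2 between steps; 9097 tested). Centring gave 63 higher and 16 between steps, quantile normalization once more 2 between steps, and the mean of all probe sets 8. Every probe set on its own gave 22 higher and 0 between steps. Of the 73 named genes not called, 23 passed with the trend, 17 with dim genes left out and 9 after centring. With quantile normalization once more or the mean of all probe sets it was 7 each. The trend called 7 goblet, 4 cell cycle regulator and 3 glycolysis genes lower and 3 Notch genes higher. It called 0 genes of mitosis, DNA replication and ribosome biogenesis. The cause of these changes was not tested.

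The replicate block gave 221 called genes (39 higher, 182 lower), 161 of them shared with the reported 248, and 0 between steps. Of the 49 named calls 37 passed with it, and the other 12 are given with the results, as are 8 named genes that passed with it and not in the reported fit. It changed no other named call. Of the same 49, Sp5 missed the threshold after centring (adjusted p = 0.0549), Efna4 after centring (0.0563) and after quantile normalization once more (0.0585), and Igfbp4, Zik1, Boc and Cbs with the mean of all probe sets (0.0528, 0.0817, 0.142 and 0.0672).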
